A study of Homo sapiens with 3 samples.

Results

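The microRNAs (miRNAs) miR-103a and miR-107 are close relatives that come from 3 hairpins inside introns of pantothenate kinase (PANK) genes. Members were chosen by name. They are the hairpins hsa-mir-103a-1, hsa-mir-103a-2 and hsa-mir-107, which make up 3 of the 661 primary transcripts listed, and every listed mature strand of miR-103a and miR-107, which make up 4 of 851 mature rows and 3 of 783 mature names. The mature names are miR-103a-3p, which has 2 rows, miR-107 and miR-103a-2-5p. The other 5p strand, miR-103a-1-5p, had no row, and neither had miR-103b or its hairpins hsa-mir-103b-1 and hsa-mir-103b-2, which RefSeq places on the opposite strand of the miR-103a loci. No level was assigned to any of them.

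MV4-11 was the source of the RNA. It is an established human cell line of acute myeloid leukemia (AML) with the FLT3-ITD mutation and the MLL-AF4 fusion, and the labels give its genotype as WT. Cells were infected with an empty vector (EV) lentiviral CRISPR-Cas9 construct and were cultured for 2 weeks before total RNA was isolated. There were 3 replicate cultures of this 1 group, so every comparison was made between miRNAs within a library, or between the 3 libraries, and none between conditions. Nothing in the labels says how far the cultures were kept apart, so p-values rest on the spread between these 3 libraries. Each fit shares its estimate of that spread over all its features, so a p-value does not measure the spread of 1 ratio alone.

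A miRNA hairpin is cut out of a longer RNA and then trimmed to a short duplex, of which 1 strand usually stays bound to an Argonaute protein while the other is lost. The bound strand finds its target mRNAs mainly through its seed, bases 2 to 8 counted from the 5′ end. The PANK enzymes catalyze the rate-limiting step of coenzyme A synthesis, and the family of miR-103 and miR-107 is known for repressing Dicer, the enzyme that makes mature miRNAs, and caveolin-1, a membrane protein tied to insulin signaling. In qPCR, miR-103a-3p is often used as a reference for the level of other miRNAs.

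The mature sequences are shown because they set which reads can be told apart. Capitals mark the seed, and the sequences are those of RefSeq, written 5′ to 3′.

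miR-103a-3p: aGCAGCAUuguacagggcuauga

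miR-107: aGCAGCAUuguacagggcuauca

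miR-103a-2-5p: aGCUUCUUuacagugcugccuug

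Both 3p strands have 23 bases and share the seed GCAGCAU, which no other of the 2370 human mature sequences in the RefSeq table carries. They share their first 21 bases and differ by the substitution G22C, in which the base of miR-103a-3p comes first and positions are counted from the 5′ end. A read that ends before base 22 therefore has the letters of both. The 5p strand has a different seed, GCUUCUU.

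The 3 loci lie on different chromosomes. On the GRCh38.p14 build of RefSeq, MIR103A1 lies at chr5:168560896-168560973 on the minus strand within PANK3, MIR103A2 at chr20:3917494-3917571 on the plus strand within PANK2, and MIR107 at chr10:89592747-89592827 on the minus strand within PANK1. In GENCODE 29, each hairpin lies on the strand of its host gene, is spanned by 2, 8 and 3 host transcripts, respectively, and overlaps 0 of their exons, which makes all 3 intronic. The following stretches of 30 bases show how far the loci stay alike around the mature strand, which is in capitals.

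hsa-mir-103a-1: ucaAGCAGCAUUGUACAGGGCUAUGAaggc

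hsa-mir-103a-2: ucaAGCAGCAUUGUACAGGGCUAUGAaaga

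hsa-mir-107: ucaAGCAGCAUUGUACAGGGCUAUCAaagc

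The run shared by hsa-mir-103a-1 and hsa-mir-103a-2 around the mature strand is 27 bases, so a read of the mature strand alone has the letters of both copies. The run that either shares with hsa-mir-107 is 24 bases. Over their whole length the hairpins are less alike. The miR-103a copies were 80.8% identical to each other, whereas hsa-mir-107 was 85.2% identical to hsa-mir-103a-2 and 79.0% identical to hsa-mir-103a-1.

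The 3 libraries held 10991953 to 12694823 mature counts, and intervals below are Wilson 95% intervals of counting error only, since reads without molecular identifiers include PCR copies. All 6 listed miRNAs of white blood cells, such as miR-142-3p, miR-223-3p and miR-155-5p, were present at a mean of 27965 to 1100895 FPKM. FPKM stands for fragments per kilobase of the feature and per 1e6 counted reads. Of 13 miRNAs of other tissues, 11 were listed, at 195.4 to 340814 FPKM with a median of 3759, and the highest were the neural miR-9-5p at 340814, miR-126-3p of endothelium and blood stem cells at 134443 and the neural miR-124-3p at 55618, while miR-205-5p and miR-375 had no row. Replicate 1 was the library that stood apart. Among the 163 mature names with at least 1000 counts in every library, the median ratio of FPKM was 1.33 for replicate 2 over replicate 1 and 1.44 for replicate 3 over replicate 1, but 1.09 for replicate 3 over replicate 2.

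miR-103a-3p was among the most abundant miRNAs of these cells. Its 2 rows together held 120068, 208291 and 258464 counts in replicates 1, 2 and 3. That was 429822, 861154 and 1005440 FPKM, with a mean of 765472 ± 299500 (SD, n = 3). It took 0.946% (interval 0.940 to 0.951), 1.89% (1.89 to 1.90) and 2.21% (2.20 to 2.22) of mature counts and ranked 15 of 783 names by mean FPKM. Replicate 1 was low, and replicates 2 and 3 lay close together. Whether a read that matches both loci was counted in both rows is not known. If it was, the sum holds that read more than once. The level, share and rank of miR-103a-3p and its ratio to miR-107 are then too high.

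miR-107 held 6001, 17398 and 24468 counts. That was 21483, 71930 and 95182 FPKM, with a mean of 62865 ± 37677 (SD, n = 3). Its share of mature counts was 0.0473% (interval 0.0461 to 0.0485), 0.158% (0.156 to 0.161) and 0.209% (0.207 to 0.212), and it ranked 68. Again replicate 1 was the low library, and by a wider margin than for miR-103a-3p.

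miR-103a-2-5p, the strand that is usually lost, was near the bottom of what these libraries resolve. It held 19, 46 and 44 counts, or 68.0, 190 and 171 FPKM, with a mean of 143 ± 65.7 (SD, n = 3) and rank 476. As a percent of mature counts, its intervals in replicates 2 and 3 (0.000314 to 0.000558 and 0.000281 to 0.000506) overlapped, and that of replicate 1 (9.58e-05 to 0.000234) lay below both.

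**Figure D1:**
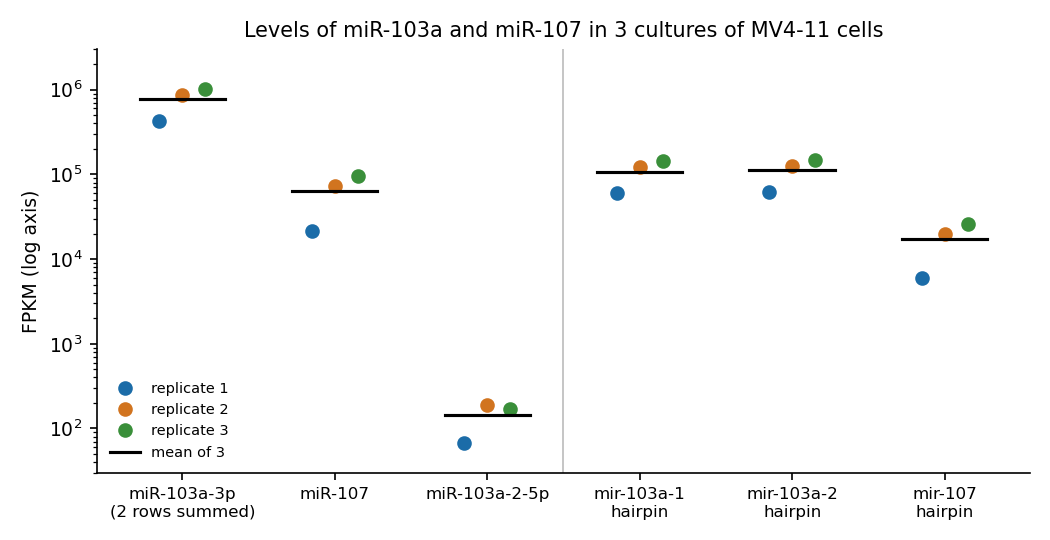
Level in FPKM (log axis) of each mature name, left of the line, and each hairpin, right of it, in replicates 1, 2 and 3 (points) of EV-infected MV4-11 cells, with the mean of 3 as a bar. Replicate 1 is the lowest point for all 6, miR-103a-3p has a mean of 765472 and miR-107 of 62865, and the 2 miR-103a hairpins are level with each other.

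In the order of mean FPKM, miR-103a-3p and miR-107 had neighbours that did not pass the test against them. These neighbours were picked for their close means in the same libraries, and a call needed an absolute log2 ratio of at least 1. The outcome was thus largely set by the choice, and it does not show equal levels. Directly above miR-103a-3p was miR-24-3p at 771176 ± 259282, with a log2 ratio of counts to miR-103a-3p of -0.03 (edgeR quasi-likelihood test, Benjamini-Hochberg adjusted p = 0.904). Directly below it was miR-221-3p at 591323 ± 278015, with a log2 ratio of -0.42 (edgeR adjusted p = 0.138). Neither passed the test.

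miR-107 stood between miR-345-5p at 63589 ± 18653 FPKM and miR-15b-5p at 62368 ± 37322. Their log2 ratios of counts to miR-107 were 0.15 (edgeR adjusted p = 0.775) and -0.09 (edgeR adjusted p = 0.849), and neither passed the test. The means of miR-597-5p, at 144 FPKM, and miR-3614-5p, at 142 FPKM, enclosed that of miR-103a-2-5p and lay within its SD. These neighbours were not tested.

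The first comparison asked how the sister miRNAs, which share a seed and differ at 1 base, compare in level. miR-103a-3p exceeded miR-107 in 3 of 3 libraries. The ratio of their counts was 20.0, 11.97 and 10.6 in replicates 1, 2 and 3, and as both were divided by the same length the ratio of FPKM was the same. On the log2 scale this was 4.32, 3.58 and 3.40, with a mean of 3.77 ± 0.49 (SD, n = 3). edgeR's quasi-likelihood test gave a log2 ratio of 3.77 with a Benjamini-Hochberg adjusted p of 0.000106 over 782 names. In the same fit, 44 of 782 names, or 5.63%, were called higher than miR-107, with an adjusted p under 0.05 and a log2 ratio of at least 1, and miR-103a-3p was one of them. All 782 tests share the counts of miR-107 and are not independent of each other.

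The difference held for a single row as well as for the sum. With only the higher row of miR-103a-3p, in place of the sum of both, the log2 ratio was 2.78. If reads were counted in both rows, the ratio of the single row is the nearer one. Reads too short to reach the differing base could have been given to either name, and how the counting placed them was not tested.

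miR-103a-2-5p was called lower than miR-107, at a log2 ratio of -8.66 (edgeR adjusted p = 4.2e-06), as were 683 of 782 names, or 87.3%. Set against miR-103a-3p, miR-107 was called lower at a log2 ratio of -3.77 (edgeR adjusted p = 8.15e-06) and miR-103a-2-5p at -12.42 (edgeR adjusted p = 7.61e-08). In that fit 760 of 782 names, or 97.2%, were called lower, so these calls place both members with nearly all other miRNAs.

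The share of miR-107 in the sum of both sisters differed between libraries by more than counting error. It was 4.76% (interval 4.64 to 4.88) in replicate 1, 7.71% (7.60 to 7.82) in replicate 2 and 8.65% (8.55 to 8.75) in replicate 3. The 3 intervals do not overlap. The mean was 7.04% ± 2.03 (SD, n = 3). These shares are too low if reads of miR-103a-3p were counted in both of its rows.

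The second comparison asked how reads were divided between the near-identical miR-103a copies. The rows of miR-103a-3p held 60573 and 59495 counts in replicate 1, 105429 and 102862 in replicate 2, and 130282 and 128182 in replicate 3. The higher row thus took 50.4% (interval 50.2 to 50.7), 50.6% (50.4 to 50.8) and 50.4% (50.2 to 50.6) of them, with a mean of 50.5% ± 0.111 (SD, n = 3). The split was nearly even in each library. The rows still differed by 1078, 2567 and 2100 counts, which is 3.11, 5.62 and 4.13 counting SD, and the same row was the higher one in 3 of 3 libraries.

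The rows carry the same name and no hairpin. The counts of the higher row exceeded those of the whole hairpin hsa-mir-103a-1 in every library, and the higher row was therefore taken as that of hsa-mir-103a-2. This rests on a mature count being no larger than that of its hairpin, which did not hold in every case. The hairpin count less that of the listed strands was -0.464%, -0.487% and -0.284% of the hairpin in hsa-mir-132, and -0.0176% in replicate 1 of hsa-mir-345, which made 2 of 112 hairpins with a single mature row per strand and at least 1000 counts in every library.

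Other miRNAs with 2 rows were divided evenly in some cases and unevenly in others. There were 43 besides miR-103a-3p, of which 0 had identical rows in all libraries. Over the 15 with at least 1000 summed counts in every library, the mean share of the higher row ran from 50.1% for miR-26a-5p to 59.0% for miR-128-3p, with a median of 50.3%. It was above that of miR-103a-3p for 6, which were miR-128-3p, miR-320b (56.4%), miR-181b-5p (54.3%), miR-92a-3p (51.6%), miR-101-3p (51.2%) and miR-450a-5p (50.9%), named for that after their values were seen. The same row was the higher one in all 3 libraries for 10 of the 15. Of their 45 differences, 25 were under 2 counting SD, with a median of 1.55. All 3 values of miR-103a-3p were above 2. A read of a shared strand does not tell which locus it came from, so the split is one between rows and not a measure of each locus.

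The hairpin counts gave the same picture, as they must, since nearly all reads of these hairpins are those of their listed mature strands. hsa-mir-103a-2, the copy within PANK2, held 61061, 106390 and 131620 counts, or 62317, 125329 and 145876 FPKM, with a mean of 111174 ± 43541 (SD, n = 3) and rank 22 of 661. hsa-mir-103a-1, the copy within PANK3, held 59523, 102936 and 128293 counts, or 60748, 121260 and 142189 FPKM, with a mean of 108066 ± 42294 and rank 24. Of the reads of both, hsa-mir-103a-2 took 50.6% (interval 50.4 to 50.9), 50.8% (50.6 to 51.0) and 50.6% (50.4 to 50.8). The log2 ratio of the copies was 0.04 ± 0.0062 (SD, n = 3), and by edgeR's quasi-likelihood test over 660 hairpins it did not pass (adjusted p = 0.876). The ratio was above 1 in 3 of 3 libraries, with a spread smaller than its size. The test shares its estimate of the spread over all hairpins, and a call needed an absolute log2 ratio of at least 1, which this one could not reach.

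hsa-mir-107, within PANK1, held 6037, 17449 and 24536 counts, or 5930, 19784 and 26174 FPKM, with a mean of 17296 ± 10349 (SD, n = 3) and rank 80. Per length, the level of hsa-mir-103a-1 was 10.2, 6.13 and 5.43 times that of hsa-mir-107 in replicates 1, 2 and 3, and the level of hsa-mir-103a-2 was 10.5, 6.33 and 5.57 times. The log2 ratio of counts of hsa-mir-107 to hsa-mir-103a-1 was -2.75 (edgeR quasi-likelihood test, Benjamini-Hochberg adjusted p = 5.71e-05), lower in 3 of 3 libraries. Of 660 hairpins 623, or 94.4%, were called lower than hsa-mir-103a-1 in that fit, hsa-mir-107 among them and hsa-mir-103a-2 not. hsa-mir-107 made up 4.77%, 7.69% and 8.63% of the reads of the 3 hairpins, close to its share at the mature level, where nearly the same reads are counted.

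**Figure D2:**
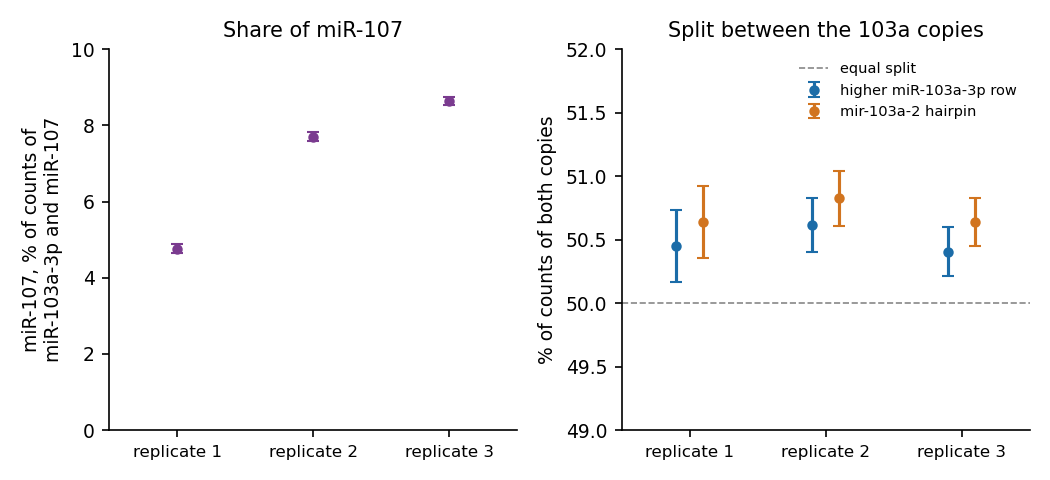
Left, miR-107 as a percent of the counts of miR-103a-3p and miR-107 in each replicate. Right, the higher row of miR-103a-3p and the hairpin mir-103a-2 as a percent of both copies (axis from 49% to 52%). Bars are Wilson 95% intervals, the dashed line is an equal split. The share of miR-107 runs from 4.76% to 8.65% and the split of the copies only from 50.4% to 50.8%.

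Another family made in introns of related host genes was set beside the members. The miR-26 hairpins lie in CTDSP genes, which encode small phosphatases, and as for miR-103a, a pair of the hairpins gives 1 mature sequence. hsa-mir-26a-1 and hsa-mir-26a-2 had 106346 ± 2724 and 98071 ± 2162 FPKM, and hsa-mir-26b had 80412 ± 29141 FPKM (SD, n = 3). Their log2 ratios of counts to hsa-mir-103a-1 were 0.04, 0.05 and -0.43 (edgeR adjusted p = 0.900, 0.876 and 0.126), and none passed the test. The ratio of counts of miR-26a-5p to miR-26b-5p was 4.49, 2.38 and 2.06 in replicates 1, 2 and 3. It varied with an SD of 0.60 on the log2 scale against 0.49 for miR-103a-3p over miR-107, and in both families replicate 1 gave the highest ratio.

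The third comparison asked which strand of the hairpin was kept. miR-103a-3p exceeded miR-103a-2-5p by 6319, 4528 and 5874 times in counts in replicates 1, 2 and 3. The 5p strand thus made up 0.0158% (interval 0.0101 to 0.0247), 0.0221% (0.0166 to 0.0294) and 0.0170% (0.0127 to 0.0228) of both strands. The intervals overlap, and no difference in strand choice between libraries was detectable at this depth. The log2 ratio of 5p over 3p was -12.41 (edgeR quasi-likelihood test, Benjamini-Hochberg adjusted p = 3.52e-06 over 217 pairs of strands). With the 3p rows summed, it ranked 4 of 217 in absolute size, against a median of 3.52 over all pairs. Of these pairs 89, or 41%, were called toward the 3p strand.

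The 3p sum holds reads of 2 loci, and the listed 5p strand is named for 1. The unlisted miR-103a-1-5p differs from miR-103a-2-5p only at base 1. A 5p read without that base has the letters of both. Against the higher 3p row alone, the log2 ratio was -11.43. For the other miR-103a locus and for miR-107 there was no listed 5p strand, and therefore no strand ratio. The pairs with larger ratios were those of miR-26a-1 at 13.48 and let-7g at 12.55, which kept the 5p strand, and that of miR-101 at -13.34. They were named after their values were seen, for their place above miR-103a-2. The 5p count of miR-26a-1 was likewise a sum of 2 rows.

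Some reads of a hairpin lay in none of its listed mature strands. In hsa-mir-103a-1 these were 28, 74 and 111 counts in replicates 1, 2 and 3, or 0.0470% (interval 0.0325 to 0.0680), 0.0719% (0.0573 to 0.0902) and 0.0865% (0.0719 to 0.104) of the hairpin. In hsa-mir-103a-2 they were 469, 915 and 1294 counts, or 0.768% (0.702 to 0.840), 0.860% (0.806 to 0.917) and 0.983% (0.931 to 1.04). The intervals of the copies were far apart in all 3 libraries, in contrast to their nearly even mature rows.

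In hsa-mir-107 such reads were 36, 51 and 68 counts, or 0.596% (interval 0.431 to 0.824), 0.292% (0.222 to 0.384) and 0.277% (0.219 to 0.351) of the hairpin. Over the same 112 hairpins, hsa-mir-107 among them, the mean share had a median of 0.0600%. Of these, 53 were above the mean of hsa-mir-103a-1 (0.0685%), 18 above that of hsa-mir-103a-2 (0.870%) and 26 above that of hsa-mir-107 (0.389%). The counts of hsa-mir-103a-1 and hsa-mir-103a-2 rest on the lower and higher row, respectively, being theirs. The tables do not say where in the hairpin these reads lay. For hsa-mir-103a-1 and hsa-mir-107 they could include an unlisted 5p strand, which was not tested.

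**Figure D3:**
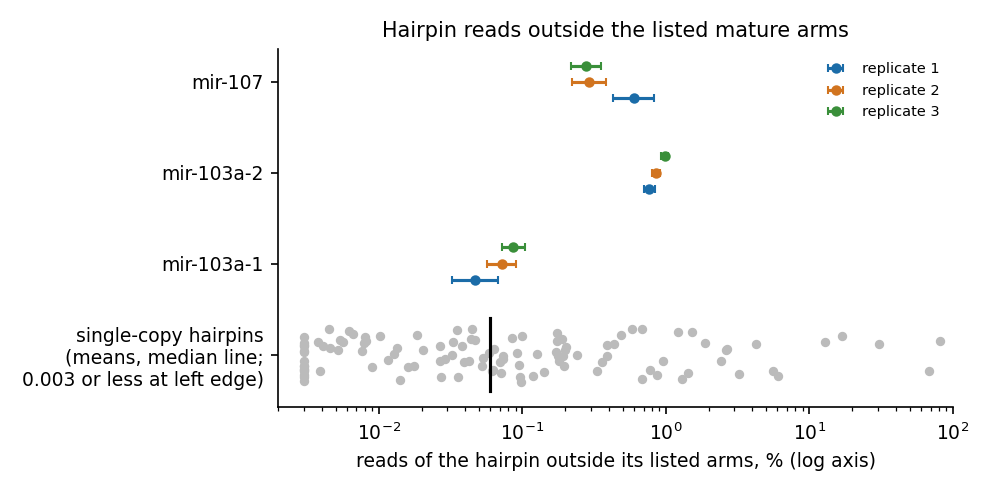
Reads outside the listed mature strands as a percent of each hairpin (log axis), for the 3 member hairpins in each replicate with Wilson 95% intervals, and as means for 112 single-copy hairpins (gray points spread vertically at random, black line at the median of 0.0600%). The 15 hairpins at 0.003% or less are drawn at 0.003%. hsa-mir-103a-2 lies to the right of hsa-mir-103a-1 in every replicate.

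The members varied between libraries more than the median miRNA counted as deeply, on the FPKM scale. The coefficient of variation (CV, the SD as a percent of the mean) of FPKM was 39.1% for miR-103a-3p and 59.9% for miR-107, against a median of 29.1% over the 163 names with at least 1000 counts in every library. miR-107 had the 10th highest CV of the 163 and miR-103a-3p the 38th. For miR-103a-2-5p the CV was 45.9%, at counts too low for a place in that order. The hairpins varied by 39.1%, 39.2% and 59.8% for hsa-mir-103a-1, hsa-mir-103a-2 and hsa-mir-107, against a median of 26.5% over 156 hairpins of the same minimum depth.

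Most of this spread lay between replicate 1 and the other libraries. The FPKM of miR-103a-3p was 2.00 times as high in replicate 2 and 2.34 times as high in replicate 3 as in replicate 1, but 1.17 times as high in replicate 3 as in replicate 2. For miR-107 these ratios were 3.35, 4.43 and 1.32, and for miR-103a-2-5p 2.80, 2.52 and 0.900. Without replicate 1 the CV of FPKM was 10.9% for miR-103a-3p and 19.7% for miR-107, against a median of 8.46%. Both thus remained above the median on the FPKM scale. The most abundant hairpin, hsa-mir-21, took 38.5% of hairpin counts in replicate 1, against 26.8% and 20.2% in replicates 2 and 3. What set replicate 1 apart was not tested.

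The scaling of the libraries bears on this spread. With TMM factors the CV of miR-103a-3p was 20.4% against a median of 22.3%, and with DESeq2 size factors 22.7% against 21.7%, which places it near the median. That of miR-107 was 46.2% and 48.1%, in 25th and 23rd place from the top. Without replicate 1, the CV of miR-103a-3p was 4.81% against a median of 6.95% with TMM, and 6.54% against 7.78% with DESeq2. That of miR-107 was then 13.6% and 15.3%. The higher spread of miR-107 was therefore seen under each scaling. That of miR-103a-3p above the median was not seen under TMM, nor under DESeq2 without replicate 1.

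**Figure D4:**
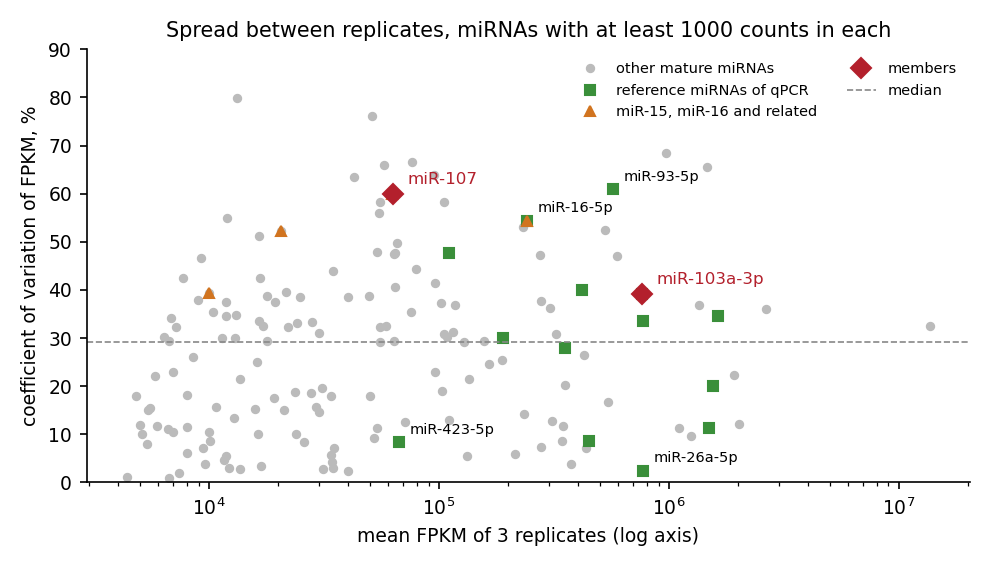
CV of FPKM over 3 replicates against mean FPKM (log axis) for the 163 mature names with at least 1000 counts in every library. Diamonds are miR-103a-3p and miR-107, squares are 14 reference miRNAs of qPCR (miR-103a-3p drawn as a diamond, miR-16-5p as both marks), triangles are relatives of miR-15 and miR-16, and the dashed line is the median of 29.1%. miR-107 at 59.9% lies among the highest, and miR-26a-5p at 2.42% among the lowest.

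Set among 14 miRNAs often used as qPCR references, all of them listed, miR-103a-3p had the 5th highest CV. The list ran from 2.42% for miR-26a-5p to 61.0% for miR-93-5p, with a median of 31.8%, and miR-16-5p reached 54.4%. With TMM factors or DESeq2 size factors, miR-103a-3p was in 8th place of the 14, and miR-26a-5p no longer had the lowest CV, at 25.8% and 23.1%. Of the 13 besides miR-103a-3p, 11 were called higher than miR-107, where 5.63% of all names were, and miR-423-5p and miR-484 were not called.

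The 5 names whose pattern over the 3 libraries was most like that of miR-103a-3p were miR-503-5p, miR-34a-5p, miR-124-5p, miR-29a-3p and miR-186-5p. Likeness was the root mean square difference of log2 FPKM after each name was centered on its mean, which was 0.0127 for miR-503-5p and 0.0432 for miR-186-5p, against a median of 0.378 over names of at least 1000 counts. miR-107 was at 0.399 and in 88th place. Over 3 libraries, in which replicate 1 differs from the others for many miRNAs, such likeness is a description of few points.

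The 5 nearest to miR-107, a list added after its values were seen, were miR-19b-3p, miR-93-5p, miR-15b-5p, miR-124-3p and miR-106b-5p, at 0.0335 to 0.110. The median over names of at least 1000 counts was 0.733, and miR-103a-3p was in 31st place. None of the 5 names nearest to miR-103a-3p was among the 5 nearest to miR-107. Unrelated lists of 5 out of 163 names would rarely share one, so this is no measure of how the sisters differ.

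Letters near the start of the sisters recur in the miR-15 and miR-16 family, which is known in leukemia for repressing BCL2. Bases 1 to 7 of miR-103a-3p and miR-107 equal bases 2 to 8 of miR-15a-5p, miR-15b-5p, miR-16-5p, miR-195-5p, miR-424-5p and miR-497-5p, so that the same letters stand 1 base further from the 5′ end. Capitals mark the letters AGCAGC, read on the given strand, in the sequences below, which were chosen to show this shift.

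miR-107: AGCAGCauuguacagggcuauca

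miR-16-5p: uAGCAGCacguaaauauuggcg

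miR-15b-5p: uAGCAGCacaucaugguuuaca

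miR-503-5p: uAGCAGCgggaacaguucugcag

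AGCAGC occurred in 20 of 2370 human mature sequences of RefSeq, or 0.844%, and AGCAGCA in 11, or 0.464%. A list of 8 of them, drawn up for their relation to miR-15 and miR-16 or for the shared letters, was compared with the sisters. Of these 8, 7 had a row and miR-646 had none, and miR-6838-5p, whose bases 2 to 8 also equal bases 1 to 7 of the sisters, had no row either. The other sequences with AGCAGC were not compared. Of the 7, only miR-16-5p was called higher than miR-107, at a log2 ratio of counts of 1.92 (edgeR adjusted p = 0.0032) and a mean of 241413 ± 131335 FPKM, where 5.63% of all names were called higher. The 5 called lower were miR-15a-5p, miR-503-5p, miR-424-5p, miR-195-5p and miR-497-5p, at log2 ratios of -1.61, -2.49, -3.40, -7.30 and -8.62, where 87.3% of all names were called lower. miR-15b-5p was not called. miR-103a-3p had a higher mean FPKM than each of the 7, and miR-107 stood second to miR-16-5p with miR-15b-5p within its spread.

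The replicate spread of these relatives was of the same order as that of the sisters. Over the 4 with at least 1000 counts in every library, the CV ran from 39.4% for miR-503-5p to 59.8% for miR-15b-5p, and replicate 1 was the lowest library for all 7. The counts of miR-15b-5p, which were 5453, 17238 and 22573, lay close to those of miR-107 in each library.

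**Figure D5:**
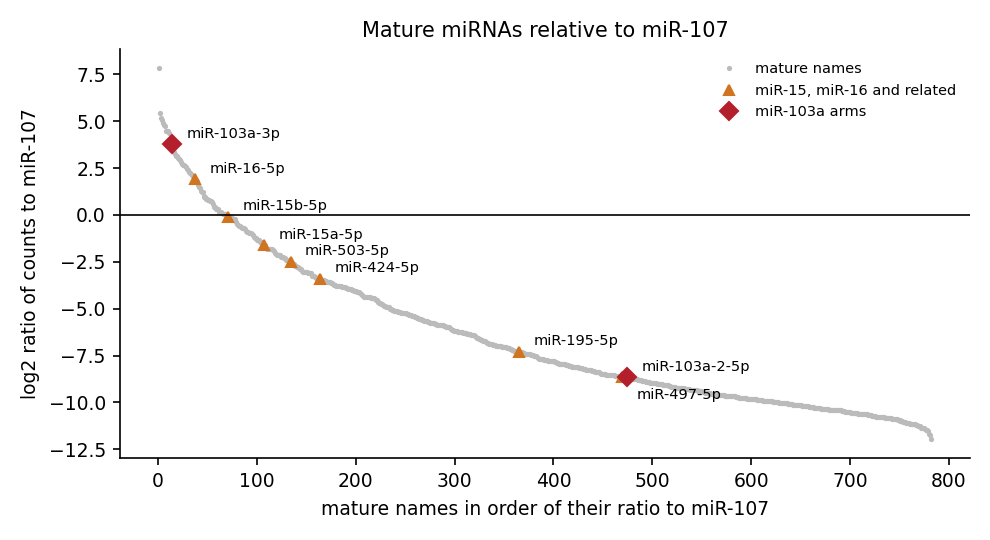
Log2 ratio of counts to miR-107 for the other 782 mature names, in falling order, with 0 as the level of miR-107. Diamonds are the miR-103a strands and triangles the 7 listed relatives of miR-15 and miR-16. miR-103a-3p lies at 3.77, miR-16-5p at 1.92, miR-15b-5p at -0.09 and miR-103a-2-5p at -8.66.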

How the data were processed

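Total RNA of 3 cultures was isolated with miRNeasy columns, small RNA libraries were made with an NEB protocol, and stranded sequencing was done on an Illumina HiSeq 2000. The authors aligned the reads and generated counts of mature miRNAs and of primary transcripts over miRBase 21, and both deposited tables give these counts, not normalized. The submitters' processing notes name Novoalign 2.08.03, hg19 and mm10 with no role. How reads that match several loci were placed is not given in the sources used here. The deposited FPKM divides each count by a feature length and by a library total close to the sum of the listed counts. The length was 22 bases for each member strand, and 77, 77 and 80 for hsa-mir-103a-1, hsa-mir-103a-2 and hsa-mir-107. Every row listed reached 10 counts in a library, so rarer miRNAs are not analysed here. NEB protocols ligate adapters to RNA ends with an efficiency that depends on sequence, so levels of different miRNAs are not strict molar ratios.

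Rows with the same mature name were summed, so a read counted in several rows of a name would enter the sum more than once. Counts of each name were tested against miR-107, counts of each hairpin against hsa-mir-103a-1, and 5p against 3p counts of pairs with at least 10 counts in all, in edgeR 4.0.16 under R 4.3.3 by its quasi-likelihood method. The library was a block, and Benjamini-Hochberg adjustment ran over all features. A call needed an adjusted p under 0.05 and an absolute log2 ratio of at least 1. The trend of dispersion with abundance was left out of the fits against a single reference. The step was tested on simulated counts in which each feature had its own reference row and all features had the same spread. That run does not show how p-values behave where a single reference is shared by all rows. limma 3.58.1, DESeq2 1.42.0, other pseudocounts, filters and scalings, and fits without each replicate were the alternatives. A fit against miR-103a-3p and the reads outside listed strands were added after the data were seen. An exact sign-flip test over 3 libraries cannot go below p = 0.25 and was not used.

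Named miRNAs were the members, their neighbours in mean FPKM, the 5 names nearest to miR-103a-3p in pattern, and lists of relatives by sequence, of qPCR references, of the miR-26 family and of tissue markers, from which a few were named by level and spread. The members and lists were chosen with earlier results of these data known. Sequences and loci are from RefSeq (GRCh38.p14) and GENCODE 29. The files hold no coordinates. Shares, intervals and sequence comparisons used scipy 1.17.1, Biopython 1.88, pandas 2.3.3 and numpy 2.4.6 under Python 3.11.15, and plots used matplotlib 3.10.9.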

Additional observations from a re-analysis of the deposited data

How the results depend on the processing

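Of 129 values recomputed under alternatives, 117 kept their direction and call or moved by less than their limit, 12 moved further and 0 reversed. The log2 ratio of miR-103a-3p to miR-107 ran from 2.78 to 3.95, that of hsa-mir-107 to hsa-mir-103a-1 from -2.93 to -2.47 and that of 5p to 3p from -12.56 to -11.43, with each called by edgeR, limma and DESeq2 and without each replicate. The adjusted p of the first ran from 2.51e-37 to 0.000809. The log2 ratio of the miR-103a hairpins was 0.037 to 0.042, far under the 1 that a call needed. It could therefore be called under no alternative (adjusted p 0.798 to 0.949 by edgeR, limma and DESeq2). The CV of miR-103a-3p moved from 39.1% to 20.4% with TMM factors and 22.7% with DESeq2 size factors, and ran from 10.9% to 56.7% when each replicate was left out. That of miR-107 ran from 19.7% to 89.3%. In each case the lowest value was the one without replicate 1, and a CV counted as moved beyond 1.5 times. The share of the higher copy was 50.7% in primary transcripts against 50.5% in mature rows, where the limit was an SD of 0.111. Leaving out 1 of 3 libraries cannot move a mean level or a mean share by over 1 SD, and TMM factors cannot move a ratio within a library. Scaling to the listed counts nearly repeated the FPKM. The 117 include values that could not move, so the tally alone is no measure of robustness. No paired analysis was possible because there was 1 group, and the library was the block in each fit. Depth limits the 5p strand, which had 19 to 46 counts.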
